A study of Mus musculus with 18 samples.

Results

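The transcripts of 8 genes of the dystrophin-associated protein complex were followed in the left ventricular mid wall of mice labelled wild type (WT) or MLP KO. The members are Dmd, Utrn, Dtna, Dag1, Sgca, Sgcb, Sgcd and Lama2, and they were found by matching each Ensembl gene identifier to its symbol in GENCODE M21. All 8 of the 49315 genes in the count tables were found, and all 8 were among the 15778 genes that passed the filter on low counts. RNA came from male mice on the 129SVE background at 3, 6 and 10 weeks of age, with 3 libraries for each genotype and age (18 in all). MLP is muscle LIM protein, a Z-disc protein of cardiac and skeletal muscle encoded by Csrp3, and mice without it develop dilated cardiomyopathy. The labels do not say which part of Csrp3 was deleted.

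Dystrophin links the actin cytoskeleton under the muscle membrane to a membrane complex that in turn binds laminin outside the cell. Dystroglycan is the laminin receptor of the complex, the sarcoglycans hold it in the membrane, and dystrobrevin and the syntrophins sit on its inner face and bind signalling proteins. In the heart the complex lies along the lateral membrane and at costameres, and loss of dystrophin or of some sarcoglycans causes muscular dystrophy with cardiomyopathy.

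Csrp3 itself was not lower in the libraries labelled KO. Its level in CPM, the count relative to the library's total after scaling between libraries by the trimmed mean of M values (TMM), was 951 to 1486 in the 9 WT libraries. In the 9 KO libraries it was 1134 to 3416, and at each age every KO library lay above every WT library. Nppa, the atrial natriuretic peptide gene that ventricles switch on under load, was at 192 to 467 CPM in WT and 1984 to 17428 CPM in KO. Because the count over the whole gene does not bear out the label of Csrp3, KO below means a library labelled MLP KO, and every direction between genotypes rests on that label. Library totals were 14980968 to 23001047 assigned counts, and mitochondrially encoded genes took 11.0% to 16.8% of counts in WT and 7.50% to 10.9% in KO. Summed over 12 cardiomyocyte markers, levels were 91413 to 127945 CPM in WT and 111719 to 152136 CPM in KO. The single markers went both ways, with 5 of 12 called higher and 3 lower in KO averaged over ages. Their median log2 fold changes were 0.18, -0.26 and 0.22 at 3, 6 and 10 weeks. Skeletal muscle markers summed to 2.01 to 6.16 CPM over all libraries, with the defining fast myosins Myh1, Myh2 and Myh4 at medians of 0, 0.0453 and 0 CPM. The atrial light chain gene Myl7 passed 50 CPM (before TMM scaling) in 3 KO libraries, 1 of each age: KO replicate 3 at 3 weeks (73.3 CPM) and 6 weeks (188.5 CPM) and KO replicate 1 at 10 weeks (572 CPM). Averaged over ages, 7 of 10 endothelial markers were called lower and 0 higher in KO (summed level 1325 to 1672 CPM in WT, 894 to 1457 CPM in KO), and 5 of 10 mural markers lower and 2 higher (1194 to 1801 and 755 to 1372 CPM). Of 10 macrophage markers 5 were lower and 1 higher (276 to 453 and 211 to 373 CPM). Over all genes 20.4% were called higher and 21.1% lower in this comparison averaged over ages. At 3, 6 and 10 weeks 0, 3 and 3 endothelial markers were called lower and 0 higher at each age. The part of these markers in the results below was not tested. In whole tissue, fewer cells of a type and less RNA per cell cannot be told apart.

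The proximal upstream sequences of Dmd, Utrn, Dag1 and Lama2 are shown because Dmd, Dag1 and Lama2 were called higher in KO averaged over the 3 ages, and Utrn is the paralog of Dmd. Each run is the 150 bases directly upstream of the RefSeq transcription start, on the gene's own strand, from RefSeq on GRCm38.p6. Of the 8 members 7 matched the promoter table, and Dtna, also called higher on average, did not. Capitals mark matches to the motifs, each searched on both strands. The letters of an E-box were CANNTG. The muscle element that binds TEAD factors was searched as CATTCC. For the MEF2 element the letters were CTANNNNTAG. A GC box was GGGCGG on either strand. For the core promoter element near the start site the search used TATAAA. The serum response factor CArG box was searched by its consensus. E-box matches can overlap each other.

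Dmd, chrX:82948720-82948869, plus strand: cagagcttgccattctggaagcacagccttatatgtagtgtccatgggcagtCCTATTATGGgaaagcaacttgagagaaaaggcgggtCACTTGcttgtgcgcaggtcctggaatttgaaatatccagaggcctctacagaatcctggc
Utrn, chr10:12861736-12861885, minus strand: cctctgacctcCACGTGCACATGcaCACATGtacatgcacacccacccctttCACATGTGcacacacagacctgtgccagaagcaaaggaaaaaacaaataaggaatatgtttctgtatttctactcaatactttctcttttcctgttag
Dag1, chr9:108263959-108264108, minus strand: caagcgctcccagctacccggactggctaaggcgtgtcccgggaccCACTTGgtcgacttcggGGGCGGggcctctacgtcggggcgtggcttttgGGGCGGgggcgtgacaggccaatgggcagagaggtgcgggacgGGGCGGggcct
Lama2, chr10:27616943-27617092, minus strand: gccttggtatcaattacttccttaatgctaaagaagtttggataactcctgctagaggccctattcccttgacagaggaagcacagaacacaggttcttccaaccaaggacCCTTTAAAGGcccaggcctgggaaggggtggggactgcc

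The 4 windows differed in composition and in the motifs they held. The Dmd window had a CArG box at -98 and an E-box at -61, counted from the start site, and the Lama2 window had a CArG box at -39. A CArG box was present in 1.47% of 32851 promoters when the 250 bases upstream of each start were searched. Utrn had 5 E-box matches in its window and 7 in 250 bases, where 66.2% of all promoters held at least 1. Dag1 had 3 GC boxes in its window and 3 in 250 bases, where 32.7% of all promoters held at least 1. GC content was 72.0% for Dag1 and 43.3% for Utrn. The start used for Lama2 differs from the gene end in the counting table, and a match is a description of the letters only.

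In GRCm38 coordinates of the counting tables, Dmd (ENSMUSG00000045103) lies on chromosome X from 82948870 to 85206141 on the plus strand. Utrn (ENSMUSG00000019820) and Lama2 (ENSMUSG00000019899) are both on the minus strand of chromosome 10, from 12382188 to 12861735 and from 26980036 to 27619758. Dag1 (ENSMUSG00000039952) is on chromosome 9 from 108204634 to 108263958, and Sgcb (ENSMUSG00000029156) on chromosome 5 from 73632749 to 73647790. Sgca (ENSMUSG00000001508) and Sgcd (ENSMUSG00000020354) are on chromosome 11, from 94962791 to 94976327 and from 46896253 to 47988969, and Dtna is ENSMUSG00000024302.

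Divided by counted length, the members spanned a wide range of levels. The counted length is the sum of exon bases in the authors' tables, from 1735 bases for Sgca to 23801 for Dmd. It joins the exons of all forms of a gene, so it can exceed the length of any single transcript. The order of the members therefore depends on this length. On this scale, in CPM per kilobase over the 18 libraries, Dag1 was highest at a mean of 78.7, followed by Sgca at 67.9, and their ranges overlapped (53.8 to 106 and 51.7 to 92.8). Sgcb followed at 40.4, with all 18 libraries below the lowest Sgca library. Lama2 averaged 10.5, Dtna 8.04, Utrn 6.71 and Dmd 4.03, and each of these ranges overlapped its neighbour's. Sgcd, the delta-sarcoglycan gene, was lowest at 2.11. The smallest count behind any member in any library was 151, for Sgcd, and the largest 13482, for Dag1.

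**Figure D1:**
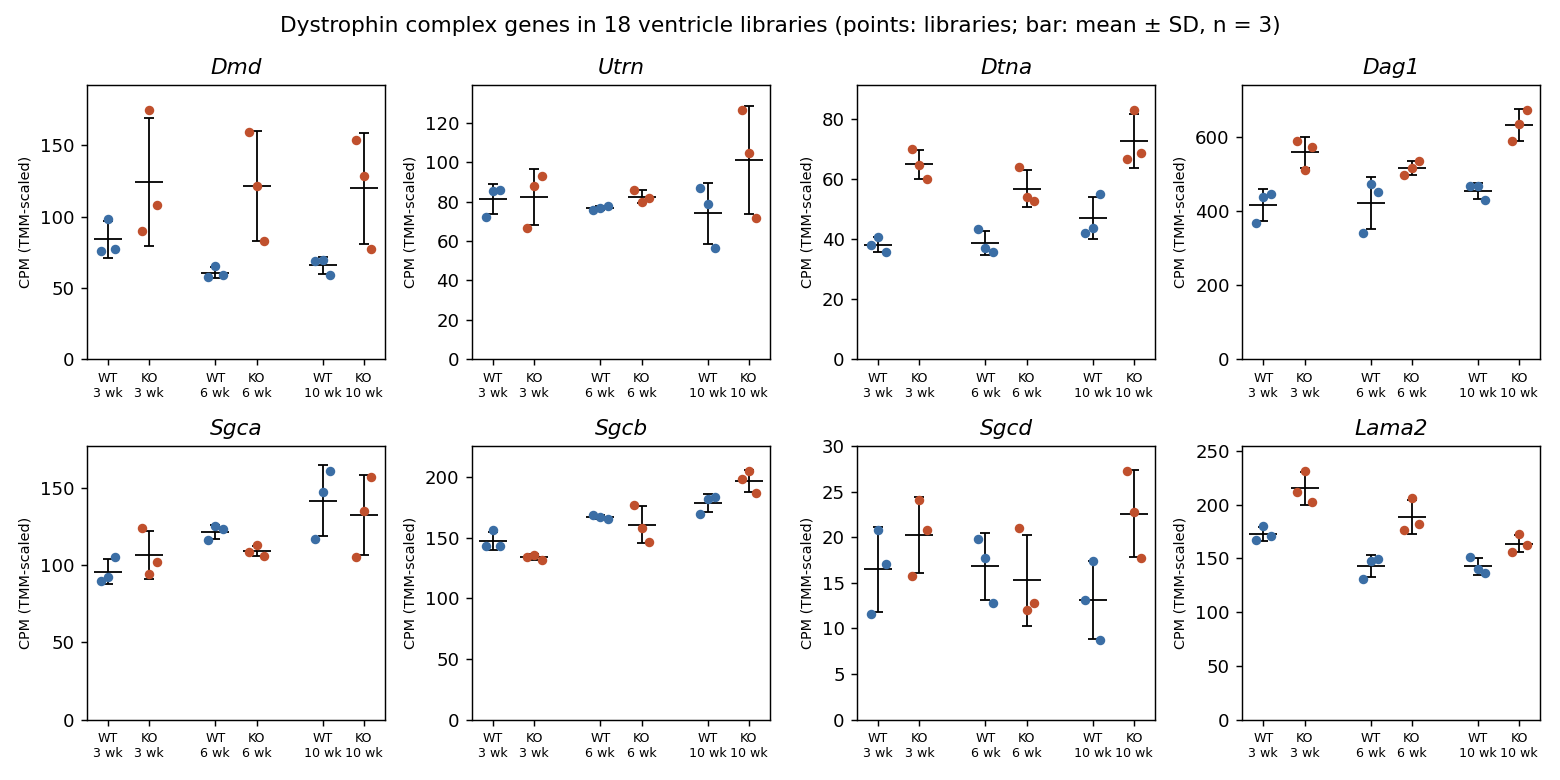
TMM-scaled CPM (vertical axes, from 0) of the 8 members in each of 18 libraries, WT in blue and KO in rust red at 3, 6 and 10 weeks; bars give the mean and SD of 3 libraries. Dtna, Dag1 and Lama2 separate the genotypes at each age, whereas the KO libraries of Dmd spread from 77.3 to 175 CPM.

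Between genotypes, the members that passed the test were all higher in KO. The test was edgeR's quasi-likelihood test over all 18 libraries, with Benjamini-Hochberg adjustment over all genes and a threshold of 0.05. At 3 weeks 3 of 8 members passed (Dtna, Dag1 and Lama2), where 15.3% of all genes passed in either direction. At 6 weeks 3 of 8 passed (Dmd, Dtna and Lama2) against 23.8% of all genes, and at 10 weeks 3 of 8 passed (Dmd, Dtna and Dag1) against 29.3%. Averaged over the 3 ages 4 of 8 passed (Dmd, Dtna, Dag1 and Lama2) against 41.5% of all genes, a share near that background. The median log2 fold change of the 8 members was 0.30, 0.20 and 0.46 at 3, 6 and 10 weeks, beside 0.00, 0.00 and -0.03 over all genes tested. Leaving out the 3 Myl7-rich libraries, a choice made after seeing the data, left 2, 3 and 2 members called at 3, 6 and 10 weeks and the same 4 on average.

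**Figure D2:**
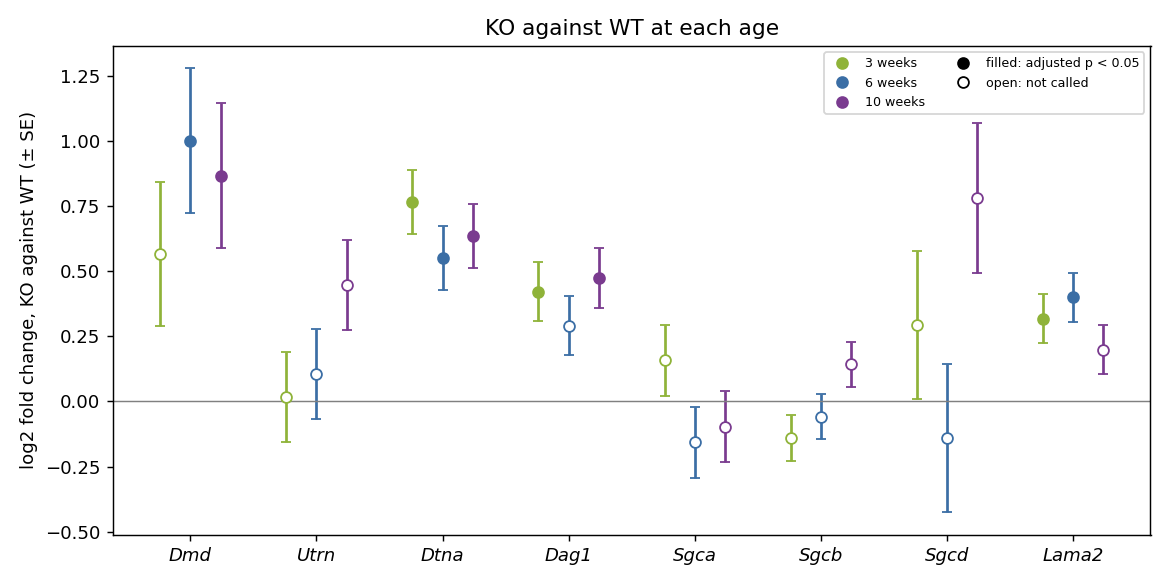
Log2 fold change of KO against WT with its standard error (vertical axis) for the 8 members at 3, 6 and 10 weeks; filled points passed at an adjusted p under 0.05. Dtna passed at all 3 ages, and no member passed below 0.

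Dtna encodes alpha-dystrobrevin, the dystrophin relative that sits on the inner face of the complex and recruits syntrophins. At 3 weeks Dtna was at 37.8, 40.7 and 35.8 CPM in the WT libraries and 69.8, 64.6 and 60.0 CPM in KO. At 6 weeks the values were 43.3, 37.0 and 35.7 in WT and 63.8, 53.8 and 52.5 in KO, and at 10 weeks 42.0, 43.6 and 54.9 in WT and 66.5, 82.9 and 68.5 in KO. Every KO library lay above every WT library of its age, and indeed only WT replicate 3 at 10 weeks came above the lowest KO library of any age. Dtna rose by 0.77 (SE 0.12), 0.55 (SE 0.12) and 0.63 (SE 0.12) on the log2 scale at 3, 6 and 10 weeks, with adjusted p of 0.000213, 0.00221 and 0.000497 in edgeR's test. Each of the 3 calls held in all 6 fits that left out 1 library of the groups compared.

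Dmd encodes dystrophin, and its count pools the full-length muscle transcript with shorter forms that start inside the gene. In WT, Dmd was at 75.7, 98.6 and 77.3 CPM at 3 weeks, 57.9, 65.2 and 58.9 CPM at 6 weeks and 68.8, 69.3 and 59.0 CPM at 10 weeks. In KO it was at 89.6, 175 and 108 CPM, 159.6, 122 and 82.8 CPM, and 154, 129 and 77.3 CPM at the same ages. The KO libraries of each age therefore differed among themselves by about the size of the difference between genotypes, with an SD of 44.9, 38.4 and 38.9 CPM (n = 3 each) against 12.8, 3.93 and 5.82 CPM in WT. The genotypes overlapped at 3 weeks, where the log2 fold change was 0.56 (SE 0.28, adjusted p = 0.194 in edgeR's test; called with no filter on low counts, adjusted p = 0.000274), and did not overlap at 6 or 10 weeks. In edgeR's test Dmd rose by 1.0 at 6 weeks, with SE 0.28 and an adjusted p of 0.0166. The rise at 10 weeks was 0.87, with SE 0.28 and an adjusted p of 0.0296. Without the Myl7-rich libraries the 6-week value was 1.22 (adjusted p = 0.0045) and the 10-week value 0.67 (adjusted p = 0.0746). Single libraries decided these calls: the 6-week call held in 3 of 6 fits that left out 1 library (0.76 to 1.21), being lost without WT replicate 1, WT replicate 3 or KO replicate 1. The 10-week call held in 1 of 6 (0.69 to 1.12), the fit without KO replicate 3. Averaged over ages, Dmd was higher by 0.81 (SE 0.16, adjusted p = 0.000856), and this call held in all 18 such fits.

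Utrn encodes utrophin, the autosomal relative of dystrophin, which can occupy the same complex. In WT its levels were 72.3, 85.6 and 86.1 CPM at 3 weeks, 75.8, 76.6 and 77.7 CPM at 6 weeks and 86.8, 78.6 and 56.7 CPM at 10 weeks. In KO they were 66.4, 88.0 and 92.8 CPM, 86.1, 79.9 and 81.8 CPM, and 127, 105 and 72.0 CPM. The groups overlapped at 3 and 10 weeks, and the 10-week KO libraries ranged from within the WT values to well above them. Utrn did not pass at any age in edgeR's test, with log2 fold changes of 0.02 (SE 0.17), 0.11 (SE 0.17) and 0.45 (SE 0.17). At 10 weeks its adjusted p was 0.0584 in edgeR's test, and 2 of 6 fits without 1 library called it (0.29 to 0.66), those without WT replicate 1 or KO replicate 3. Of the 11 alternatives that did not leave out a single library, 5 called it (0.43 to 0.48): DESeq2, its size factors in edgeR, no filter on low counts, the replicate block and length offsets. Without the Myl7-rich libraries it was 0.28 (adjusted p = 0.265). Averaged over ages Utrn was at 0.19 (SE 0.10, adjusted p = 0.135), called with the replicate block (0.18, adjusted p = 0.0155) and without KO replicate 3 at 10 weeks (0.26, adjusted p = 0.0138).

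The ratio of Utrn to Dmd, which cancels the scaling of each library, was lower in KO. Its absolute value depends on the 2 counted lengths, while the log2 difference between genotypes does not. In CPM per kilobase, the ratio was 1.84, 1.67 and 2.14 in the WT libraries at 3 weeks, 2.52, 2.26 and 2.53 at 6 weeks and 2.42, 2.18 and 1.85 at 10 weeks. In KO it was 1.42, 0.967 and 1.65, then 1.04, 1.26 and 1.90, then 1.59, 1.56 and 1.79. At each age every KO library lay below every WT library, though the highest KO value (1.90, at 6 weeks) exceeded the lowest WT values of the other ages. The log2 ratio differed by -0.51, -0.85 and -0.38 between KO and WT at 3, 6 and 10 weeks, each with an exact two-sided permutation p of 0.1, the smallest that 3 libraries against 3 allow. Averaged over the ages the difference was -0.58, and an exact two-sided permutation test within ages (8000 arrangements) gave p = 0.00025, the smallest it can give. Without the Myl7-rich libraries the difference was -0.71 (exact permutation p = 0.001). This ratio was chosen with earlier results of these data known, so it is a description of how the 2 paralogs differ in these libraries.

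**Figure D3:**
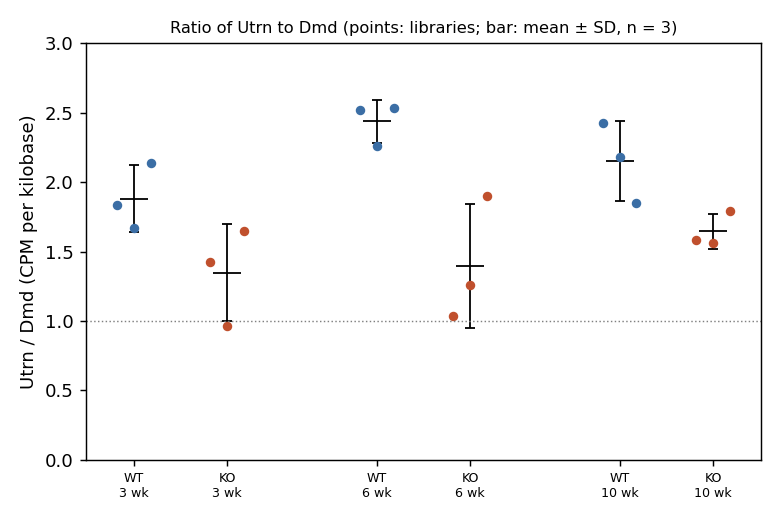
Ratio of Utrn to Dmd in CPM per kilobase of counted length (vertical axis, from 0) in each of 18 libraries by genotype and age. Bars give the mean and SD of 3, and the dotted line marks equal CPM per kilobase. The KO libraries lie below the WT libraries at each age, and KO replicate 2 at 3 weeks (0.967) is the single library below the line.

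The balance between long and short genes also moved with genotype, and several members are long. For each library, the median log2 deviation from the gene's mean over all libraries was taken for 2166 genes of at least 8000 counted bases and for 2093 genes under 1500 bases. Long minus short ran from -0.49 to 0.11 in WT and from 0.02 to 0.22 in KO. Across the 18 libraries, which share this genotype difference, Pearson's r of this value with the member's log2 level was 0.76 for Dmd, 0.73 for Dag1, 0.68 for Lama2, 0.59 for Dtna and 0.48 for Utrn. It was 0.33 for Sgcd, -0.08 for Sgcb and -0.23 for Sgca, the member with the shortest counted length. Within the 9 WT and the 9 KO libraries r was 0.71 and 0.64 for Dmd, 0.67 and -0.40 for Dag1, 0.58 and 0.21 for Lama2, and 0.04 and -0.19 for Dtna. In the same order it was 0.33 and 0.61 for Utrn, 0.01 and 0.42 for Sgcd, -0.05 and -0.17 for Sgcb, and -0.13 and -0.76 for Sgca. With the trend on length removed by offsets, chosen after seeing the data, Dmd was higher by 0.84 (adjusted p = 0.00928) at 6 weeks and 0.75 (adjusted p = 0.0149) at 10 weeks, and Dtna kept its call at all 3 ages (0.75, 0.47 and 0.66). Lama2 at 3 weeks was then 0.24 and not called (adjusted p = 0.0939), while Utrn (0.43, adjusted p = 0.0269) and Sgcd (0.80, adjusted p = 0.037) passed at 10 weeks. With the trend removed the Utrn to Dmd difference was -0.53 (exact permutation p = 0.0005). The labels give no measure of RNA integrity, and its part in the long-gene difference was not tested.

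**Figure D4:**
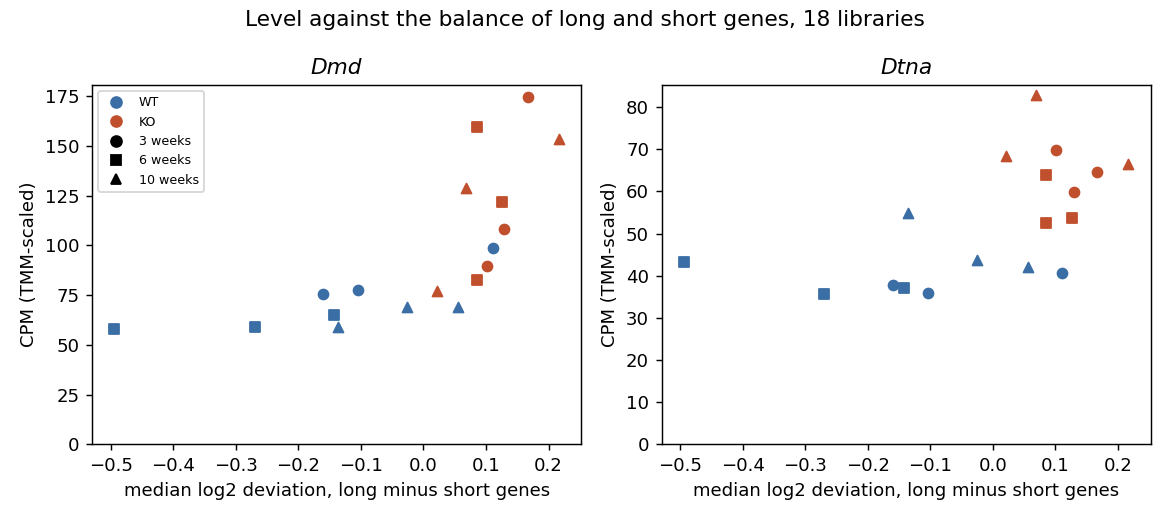
TMM-scaled CPM of Dmd and Dtna (vertical axes, from 0) against the median log2 deviation of long minus short genes in the same library, for 18 libraries (WT blue, KO rust red; circles 3, squares 6, triangles 10 weeks). Pearson's r within WT and within KO is 0.71 and 0.64 for Dmd and 0.04 and -0.19 for Dtna.

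Dag1 encodes dystroglycan, the precursor of both the laminin-binding alpha and the membrane-spanning beta subunit. At 3 weeks Dag1 was at 368, 437 and 446 CPM in WT and 590.0, 512 and 573 CPM in KO. The 6-week values were 342, 473 and 453 in WT and 497, 518 and 536 in KO, and the 10-week values 469, 468 and 431 in WT and 589, 635 and 674 in KO. No KO library overlapped the WT libraries of its age. In edgeR's test Dag1 rose by 0.42 (SE 0.11) at 3 weeks, with an adjusted p of 0.015, and by 0.47 (SE 0.11) at 10 weeks, with an adjusted p of 0.00318. The 6-week value was 0.29 (SE 0.11) and did not pass (adjusted p = 0.0691). The 10-week call held in all 6 fits without 1 library. At 3 weeks the call was lost without WT replicate 1 or KO replicate 1 (0.34 to 0.48 over the 6 fits), with only the groups compared (0.40, adjusted p = 0.0526) and without the Myl7-rich libraries (0.40, adjusted p = 0.0524). At 6 weeks it was gained without WT replicate 2 (0.38) or with library totals in place of TMM (0.37).

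Lama2 encodes the laminin alpha-2 chain, the main laminin around heart and skeletal muscle cells and a ligand of dystroglycan. At 3 weeks its levels were 167, 180.3 and 171 CPM in WT and 211, 232 and 202 CPM in KO. At 6 weeks they were 131, 148 and 149 in WT and 176, 206 and 182 in KO, and at 10 weeks 151, 140.1 and 136 in WT and 156, 172 and 163 in KO. On TMM-scaled values the genotypes did not overlap at any age, and the gap was narrowest at 10 weeks. Before that scaling the 10-week groups overlapped (132 to 153 CPM in WT, 140 to 154 CPM in KO). In edgeR's test Lama2 rose by 0.32 (SE 0.09) at 3 weeks, with an adjusted p of 0.0258, and by 0.40 (SE 0.09) at 6 weeks, with an adjusted p of 0.00322. The 10-week value was 0.20 (SE 0.09) and did not pass (adjusted p = 0.122). It ran from 0.06 to 0.25 over the 11 alternatives that did not leave out a single library. The 6-week call held in all 6 fits without 1 library, and the 3-week call in 3 of 6, being lost without WT replicate 1, WT replicate 3 or KO replicate 2 (0.26 to 0.36). Library totals, no filter on low counts and only the groups compared also ended the 3-week call (0.29, 0.32 and 0.30), and DESeq2 called the 10-week value (0.23, adjusted p = 0.0427). Fibroblasts also make laminin chains. Of 10 fibroblast markers, at 6 weeks 6 were called higher and 1 lower, and their summed level was 2322 to 2437 CPM in WT and 2926 to 3662 CPM in KO. At 3 weeks 2 markers were higher and 3 lower, with a median of -0.06 (2659 to 3092 CPM in WT and 2785 to 3139 CPM in KO), and at 10 weeks 2 higher and 1 lower (2044 to 2262 and 2425 to 2719 CPM). Their part in the Lama2 result was not tested.

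The 3 sarcoglycan members were not called between genotypes in edgeR's test over all libraries, though Sgcd at 10 weeks was called under most alternatives. Sgca, the alpha-sarcoglycan gene, ranged from 89.8 to 161 CPM in WT and from 93.9 to 157 CPM in KO, with log2 fold changes of 0.16 (SE 0.14), -0.16 (SE 0.14) and -0.10 (SE 0.14) at 3, 6 and 10 weeks. Sgcb, the beta-sarcoglycan gene, had log2 fold changes of -0.14, -0.06 and 0.14 (SE 0.09 each). Its groups did not overlap at 3 weeks, where WT was at 143, 156 and 143 CPM and KO at 134, 136 and 131 CPM, nor at 10 weeks, where WT was at 169.6, 182 and 183 CPM and KO at 198, 205 and 187 CPM. On TMM-scaled values the order of the genotypes was thus opposite at these 2 ages. The difference between the 2 effects was 0.28 (SE 0.12, adjusted p = 0.204 in edgeR's test). Before TMM scaling the 10-week groups of Sgcb overlapped (172 to 180 CPM in WT, 174 to 178 CPM in KO). Over the 11 alternatives that did not leave out a single library, its 10-week value ran from 0.0006 to 0.18. Sgcd, at 13.2, 17.4 and 8.77 CPM in WT and 27.3, 22.8 and 17.7 CPM in KO at 10 weeks, did not overlap there and had a log2 fold change of 0.78 (SE 0.29, adjusted p = 0.0518). Before TMM scaling its 10-week groups overlapped (8.45 to 17.3 CPM in WT, 16.8 to 24.5 CPM in KO). At 3 and 6 weeks Sgcd was at 0.29 (SE 0.28) and -0.14 (SE 0.29), with overlapping groups. The 10-week Sgcd value was called in 2 of 6 fits without 1 library, those without WT replicate 2 or KO replicate 3, ranging from 0.58 to 1.03. Of the same 11 alternatives 8 called it, among them DESeq2 (0.82, adjusted p = 0.011) and limma voom (0.80, adjusted p = 0.0489). The 3 that did not were library totals (0.63, adjusted p = 0.0823), only the groups compared (0.80, adjusted p = 0.0502) and leaving out the Myl7-rich libraries (0.65, adjusted p = 0.187). Averaged over ages Sgcd was at 0.31 (SE 0.16, adjusted p = 0.145), called with no filter (adjusted p = 0.00479) and with the replicate block (adjusted p = 0.0116).

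With age, Sgcb in KO was the member that passed. In KO it was at 134, 136 and 131 CPM at 3 weeks, 177, 158 and 147 CPM at 6 weeks and 198, 205 and 187 CPM at 10 weeks, so that no 2 ages overlapped. From 6 to 10 weeks Sgcb rose by 0.29 (SE 0.09, adjusted p = 0.0315 in edgeR's test), 1 call among 8 members where 12.7% of all genes passed. That call was lost without KO replicate 2 or 3 at 6 weeks, without KO replicate 2 at 10 weeks, and without the Myl7-rich libraries. Of the 11 alternatives that did not leave out a single library, 7 called it (0.08 to 0.34 over all 11). Before TMM scaling Sgcb overlapped between 6 and 10 weeks in KO (158 to 178 and 174 to 178 CPM). From 3 to 6 weeks it was at 0.26 (SE 0.09, adjusted p = 0.057), and 0 members passed where 11.6% of all genes did; 1 member had an unadjusted p under 0.05, and DESeq2 called 1 (Sgcb). In WT, 0 members passed from 3 to 6 weeks (5.18% of all genes) and 0 from 6 to 10 weeks (8.77%) in edgeR's test. Unadjusted p was under 0.05 for 2 members in the first interval, Sgca at 0.34 (SE 0.14) and Lama2 at -0.28 (SE 0.09), and for 1 in the second, Dtna at 0.27 (SE 0.12). DESeq2 called 1 member (Lama2) in the first interval and 0 in the second. Sgcb in WT was at 143, 156 and 143 CPM at 3 weeks. At 6 weeks it was at 168.6, 167 and 165 CPM, and at 10 weeks at 169.6, 182 and 183 CPM. No 2 ages overlapped in WT either, with changes of 0.18 (SE 0.09) and 0.09 (SE 0.09) that did not pass. Before TMM scaling the WT libraries at 3 and 6 weeks overlapped (151 to 162 and 160 to 170 CPM).

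Whether the genotype difference itself changed with age was tested as an interaction. In edgeR's test 0 of 8 members passed for 6 against 3 weeks (1.59% of all genes), 0 for 10 against 6 weeks (5.75%) and 0 for 10 against 3 weeks (5.76%). Unadjusted p was under 0.05 for 0, 1 and 1 members, namely Sgcd at 10 against 6 weeks (0.92, SE 0.40, adjusted p = 0.196) and Sgcb at 10 against 3 weeks, and DESeq2 called 0 in each. A member called at one age and not at another, such as Dmd, Dag1 or Lama2, was therefore not shown to differ between ages.

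The other genes of the pathway were counted by role, from lists chosen with earlier results of these data known. The shares of all genes called above (15.3%, 23.8% and 29.3%) are the background for each list. Among partners inside the complex, 6 of 10 listed genes were tested: 1 rose at 3 weeks, 3 at 6 weeks and 2 at 10 weeks, with none called lower. Their median log2 fold changes were 0.04, 0.29 and 0.33. Sntb1, which encodes a syntrophin, an adaptor that binds dystrobrevin and dystrophin, was at 2.52, 1.51 and 1.74 CPM in WT and 19.2, 19.3 and 5.31 CPM in KO at 10 weeks. The genotypes did not overlap, and Sntb1 rose by 2.90 (SE 0.42) there and by 1.44 (SE 0.37) at 6 weeks. Sspn encodes sarcospan, a small membrane protein that binds the sarcoglycans, and was at 299, 336 and 302 CPM in WT and 445, 389 and 410.4 CPM in KO at 6 weeks. It rose by 0.41 (SE 0.11) at that age. The Sntb1 calls at 6 and 10 weeks and the Sspn call at 6 weeks held under all 17 alternatives. Cav3, the muscle caveolin, rose by 0.52 (SE 0.12) at 3 weeks and 0.35 (SE 0.13) at 10 weeks. The 10-week Cav3 call was lost in 5 of 6 fits without 1 library, all but the fit without KO replicate 1, with values of 0.28 to 0.39.

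Laminin chains and other basement membrane partners were mixed. Of 10 genes tested from 11, 3 rose and 1 fell at 3 weeks, 2 rose and 1 fell at 6 weeks and 1 rose and 1 fell at 10 weeks, with medians of 0.38, 0.23 and 0.07. At 3 weeks 4 rose with DESeq2 and 6 with no filter on low counts, and at 10 weeks 0 rose and 2 fell with library totals, where the Lamc1 value was 0.26. The gene that fell was Egflam at every age: it encodes pikachurin, a dystroglycan ligand, and was at 16.1 to 26.5 CPM in WT and 3.32 to 12.5 CPM in KO. Egflam fell by 1.25 (SE 0.18), 1.62 (SE 0.19) and 1.86 (SE 0.19), and each call held under all 17 alternatives. Agrn, encoding agrin, rose by 0.42 (SE 0.11) at 3 weeks and 0.71 (SE 0.11) at 6 weeks and was at 0.11 (SE 0.11) at 10 weeks. Hspg2, encoding perlecan, rose by 0.60 (SE 0.13) at 3 weeks, Lamb1 by 0.46 (SE 0.11) at 3 weeks, Nid1 by 0.39 (SE 0.12) at 6 weeks and Lamc1 by 0.41 (SE 0.13) at 10 weeks. Single libraries ended 3 of these calls: Agrn at 3 weeks without WT replicate 1 or 2 (0.40 and 0.38), Nid1 without WT replicate 1 or KO replicate 2 or 3 (0.30 to 0.34), and Lamc1 without WT replicate 2 or 3 or KO replicate 2 (0.31 to 0.39). The genotypes overlapped for Nid1 at 6 weeks and for Lamc1 at 10 weeks.

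Enzymes that build the laminin-binding sugar of alpha-dystroglycan showed few calls in either direction. Of 15 tested from 16, 0 passed at 3 weeks in edgeR's test, 1 rose and 1 fell at 6 weeks, and 1 fell at 10 weeks, with medians of 0.07, -0.05 and -0.08. At 3 weeks 3 had an unadjusted p under 0.05, the smallest for Ispd (0.49, SE 0.18, adjusted p = 0.076), and DESeq2 called 0. Ispd, which makes the CDP-ribitol donor, rose by 0.79 (SE 0.19) at 6 weeks. B3galnt2, an N-acetylgalactosaminyltransferase gene, fell by 0.48 (SE 0.12) at 10 weeks, and Dpm3, encoding a subunit of dolichol-phosphate mannose synthase, by 1.05 (SE 0.23) at 6 weeks. These calls at 6 and 10 weeks held under all 17 alternatives.

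A list of 10 genes was taken as cytoskeletal linkers at the membrane, and it includes keratins and a membrane-repair gene. All 10 were tested. Of these, 3, 4 and 8 rose at 3, 6 and 10 weeks, where 8.65%, 11% and 14.6% of all genes were called higher. The medians were 0.45, 0.37 and 0.68, and no linker was called lower in edgeR's test. DESeq2 called 5, 5 and 8 linkers higher, and library totals 2, 5 and 6. Plec, the cytolinker plectin, rose by 0.63 (SE 0.19) at 3 weeks and 0.73 (SE 0.19) at 10 weeks. Its 3-week call was lost without WT replicate 1 or 2, without KO replicate 1 or 3 (0.46 to 0.66) and without the Myl7-rich libraries (0.62). Ank3, encoding ankyrin-G, rose by 0.48 (SE 0.15), 0.69 (SE 0.15) and 0.48 (SE 0.15) at the 3 ages. Length offsets ended its calls at 3 and 10 weeks (0.38 and 0.36), as did leaving out WT replicate 1, KO replicate 1 or KO replicate 2 at 3 weeks (0.33 to 0.42) and WT replicate 1 or 2 at 10 weeks (0.45 and 0.38). The keratins Krt8 and Krt18 were low, at 0.23 to 1.06 and 0.35 to 1.68 CPM in WT at 10 weeks and 1.46 to 5.61 and 4.32 to 6.74 CPM in KO. They rose by 2.59 (SE 0.50) and 2.76 (SE 0.42) there, and both calls held under all 17 alternatives. Krt18 also rose at 6 weeks (1.16, SE 0.40), a call lost in each of the 6 fits without 1 library (1.02 to 1.24).

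**Figure D5:**
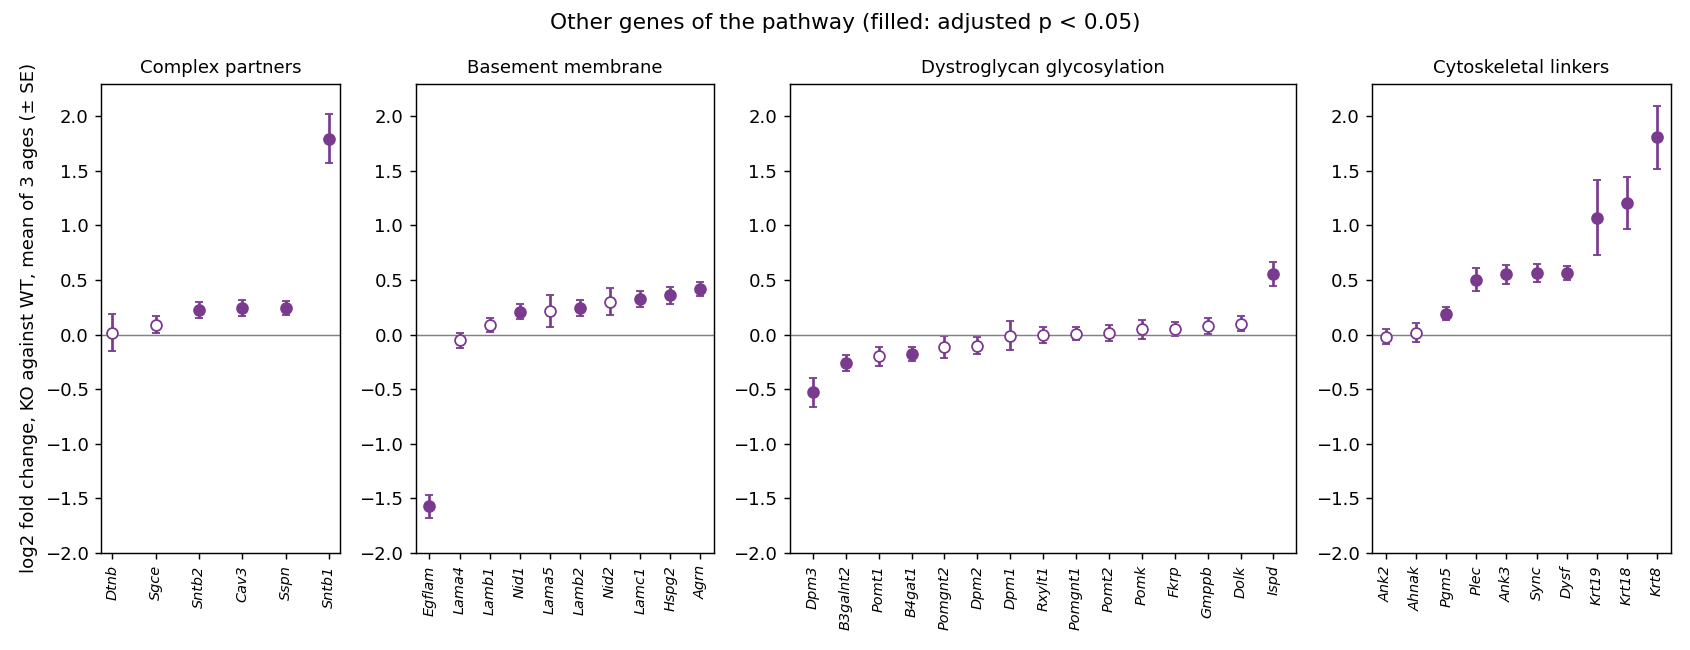
Log2 fold change of KO against WT averaged over the 3 ages, with its standard error (vertical axis), for the tested genes of 4 pathway lists; filled points passed at an adjusted p under 0.05. Sntb1 (1.80) and Krt8 (1.81) lie highest and Egflam (-1.58) lowest.

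Across the 18 libraries the members did not vary as one block. Pearson correlations of log2 CPM, which share library, age and genotype differences, ran from -0.63 for Sgcb with Lama2 to 0.77 for Dag1 with Dtna. Dmd correlated at 0.69 with Lama2, 0.66 with Dtna, 0.64 with Utrn and 0.62 with Sgcd, and at -0.44 with Sgca. Sgca and Sgcb correlated at 0.60 with each other.

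The genes most like each member over the 18 libraries also differed. Dmd was closest to Cacna2d1, a subunit of the cardiac calcium channel, at 0.96, then Ttc3 and Golim4 at 0.92 and 0.91. Dtna was closest to Pcp4l1 (0.94), Rad23b (0.93) and the cardiac actin gene Actc1 (0.93), and Dag1 to Dlgap4, Rapgef1 and Dock1 (0.94 each). Lama2 was closest to the collagen genes Col15a1 (0.95), Col6a2 (0.94) and Col1a2 (0.94). Sgca was closest to the muscle glycogen phosphorylase gene Pygm (0.94), Tmem259 (0.92) and the lipase gene Pnpla2 (0.91), and Sgcb to Nrd1 (0.95), Zfp106 (0.95) and the catalase gene Cat (0.92). The nearest genes to Utrn were Selp, Gm39090 and Rnft1 (0.84, 0.84 and 0.82), and to Sgcd they were Smg1, Myo9a and Taf1 (0.82, 0.79 and 0.79). These are the 3 highest correlations of each member with the other tested genes, given as a description.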

How the data were processed

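The deposited tables hold whole-number counts of reads per gene, 1 table per library, with the gene's exon coordinates and counted length. Per the submitters' processing notes, reads were trimmed with Trimmomatic 0.36, aligned with STAR 2.5.2b to GRCm38 and counted by the authors with featureCounts of Subread 1.5.2. Strand setting and annotation release are not given in the sources used here. Identifiers were matched to GENCODE M21 (49056 of 49315). Members share no exon base with another gene in the counting table.

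Genes passing edgeR's filterByExpr (minimum count 10, minimum total 15) were scaled by TMM and fitted with edgeR 4.0.16 (robust quasi-likelihood, 6 group coefficients, 18 libraries). An adjusted p under 0.05 was a call. Log2 levels used a prior count of 2. DESeq2 1.42.0 and limma voom 3.58.1 were alternatives, with other scalings, filters and left-out libraries. The fitting script was tested on simulated data. No 2 libraries held identical counts, and replicates of a group differed by 7.04 to 64.1 times sampling noise (chi-square per degree of freedom). The labels do not say that libraries came from separate animals, so p-values measure the spread between these libraries. Replicate numbers did not pair the genotypes.

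The members and gene lists were chosen with earlier results of these data known. The text names all 8 members. From each other list it names up to 2 called genes per direction in each genotype comparison, by size, or the gene with the smallest p, and for each member the 3 genes with the highest correlation. Some genes of the lists are not reported here, and the counts leave them out.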

Additional observations from a re-analysis of the deposited data

Results flagged for a closer look

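The genotype difference changed with age for 3 genes of the pathway lists, by an interaction term in edgeR's quasi-likelihood test with Benjamini-Hochberg adjustment over all genes, and for 0 of the 8 members. Tested were 6 complex partners, 10 basement membrane genes, 15 glycosylation enzymes and 10 linkers. Of all genes, 1.59% passed for 6 against 3 weeks, 5.75% for 10 against 6 weeks and 5.76% for 10 against 3 weeks. Krt18 had a KO minus WT difference larger at 10 weeks than at 3 weeks by 3.06 on the log2 scale (SE 0.60, adjusted p = 0.00388). Its counts were low, at 7 to 34 in the WT libraries. Of the basement membrane genes, 2 went the other way: Lamb1 by -0.74 between 10 and 3 weeks (SE 0.16, adjusted p = 0.00857) and Agrn by -0.60 between 10 and 6 weeks (SE 0.16, adjusted p = 0.0311). These 3 interactions were not examined under the alternatives.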

How the results depend on the processing

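The direction of Dmd, Dtna, Dag1 and Lama2 between genotypes held under every alternative run, and their calls averaged over the ages in all 18 fits without 1 library. The number of members called moved most at 10 weeks, from 3 to 6 with DESeq2 and to 5 with DESeq2's size factors in edgeR, with no filter on low counts and with length offsets. At 3 weeks it was 1 with only the groups compared. From 3 to 6 weeks in WT it was 1 with DESeq2, library totals, no filter, or only the groups compared, and in KO 1 with DESeq2 or a minimum count of 30. From 6 to 10 weeks in KO it was 3 with DESeq2 or length offsets, 2 with DESeq2's size factors or without mitochondrially encoded genes, and 0 with only the groups compared or without the Myl7-rich libraries. For the interaction of 10 against 6 weeks it was 1 (Sgcd) with no filter. The replicate block gave 5 members at 10 weeks and 1 in that interaction; same-numbered libraries had correlations of -0.0844 to 0.0852 over 9 pairs, so the numbers were not taken as pairs. With the block the Utrn to Dmd difference was -0.58 (exact permutation p = 0.00391, the smallest that 9 pairs allow). Without 1 library the count ran from 1 to 3 at 3 weeks, 2 to 5 at 10 weeks, 0 to 1 for KO from 3 to 6 weeks and 0 to 3 for KO from 6 to 10 weeks. Between genotypes, the signs that reversed belonged to uncalled values. These were Utrn at 3 weeks with library totals (-0.0073), without the Myl7-rich libraries (-0.0846) and with length offsets (-0.0388), and Utrn at 6 weeks with length offsets (-0.0141). Sgcb at 6 weeks was 0.0219 with library totals and 0.0081 without the Myl7-rich libraries, which also gave 0.0679 for Sgca at 10 weeks and averages of 0.0389 for Sgca and 0.0117 for Sgcb. Length offsets gave Sgca an average of 0.0553. Without 1 library the ranges were -0.0745 to 0.1533 for Utrn at 3 weeks, -0.2196 to 0.0799 for Sgca at 10 weeks, -0.1231 to 0.0022 for Sgcb and -0.4262 to 0.007 for Sgcd at 6 weeks, and for the averages -0.0726 to 0.0204 for Sgca and -0.0356 to 0.0018 for Sgcb. With age and in the interactions, 19 of 56 member values changed sign under at least 1 alternative, 0 of them called there. The causes were not tested. Library totals without TMM moved the median of all genes at 10 weeks from -0.03 to -0.17 and the calls from 2309 higher and 2316 lower to 1653 and 3424, and for KO from 6 to 10 weeks from 1028 and 968 to 457 and 2783. At 6 weeks they moved the split from 1729 higher and 2022 lower to 2170 and 1538, for WT from 3 to 6 weeks from 464 and 354 to 171 and 619, and for the interaction of 10 against 6 weeks from 493 and 415 to 259 and 1049. Over all genes, the 818 calls for WT from 3 to 6 weeks became 1274 with DESeq2, 1404 with no filter and 1495 with only the groups compared. The 1383 for WT from 6 to 10 weeks became 2463 with only the groups compared, and the 1996 for KO became 874 with only the groups compared, 3240 with library totals and 1241 without the Myl7-rich libraries, which also took KO from 3 to 6 weeks from 1829 to 1099. For the interactions, 251 (6 against 3 weeks) became 613 with DESeq2, 880 with no filter and 160 without the Myl7-rich libraries. For 10 against 6 weeks 908 became 1478 and 1550 with DESeq2 and no filter, and for 10 against 3 weeks 909 became 1479 with no filter and 484 with only the groups compared. Leaving out WT replicate 1 at 3 weeks took the 2419 calls between genotypes at 3 weeks to 1309, and WT replicate 2 to 1593. Depth limits Sgcd most, with 151 counts in its lowest library.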

Other observations

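The pathway lists were also counted across ages within each genotype, in the same edgeR test. Of 10 basement membrane genes, 5 fell from 3 to 6 weeks and 2 from 6 to 10 weeks in KO, and 3 and 0 in WT, with 0 rising. Over all genes 11.6% and 12.7% were called in KO and 5.18% and 8.77% in WT, in either direction. Of 6 complex partners, 2 fell from 6 to 10 weeks in WT and 0 changed in KO, while from 3 to 6 weeks 1 fell in KO and 0 changed in WT. Linkers rose in 2 of 10 in each interval in KO and in 0 of 10 in WT, with 0 falling. Whether these counts differ between genotypes was not tested as such.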
